A study of Mus musculus with 18 samples.

Results

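The interferon response and antigen presentation genes were followed as 45 listed mouse genes in liver RNA from 18 mice on 2 diets and of 3 SIRT1 genotypes. The list held 13 genes of class I presentation, 7 of class II presentation, 5 interferon regulators, 15 interferon-stimulated genes and 5 interferon-inducible GTPases. Members were found by symbol among the 25697 probes on the Illumina MouseRef-8 v2 array, and each of the 45 had a probe. A probe was kept where its signal exceeded the negative control beads at a detection p under 0.05 in at least 2 of 18 libraries, and the brightest kept probe stood for the gene. By this rule 40 of the 45 members were kept, among 8950 genes in all. The 5 not kept were Ifit1, Ifih1, Xaf1, Trim25 and Iigp1.

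The calorie-restricted (CR) mice received 40% fewer calories than mice fed ad libitum (AL), starting at 2 to 5 months of age by the sample labels and ending at 13 to 16 months, when the liver was taken. The 6 groups were 3 CR and 3 AL SIRT1+/+ mice, 3 CR and 2 AL SIRT1+/- mice, and 3 CR and 4 AL SIRT1-/- mice. SIRT1+/+ is the wild type, SIRT1+/- carries 1 functional allele of the deacetylase SIRT1 and SIRT1-/- carries none in any tissue. The strain is labelled C57BL/6J for every mouse. Each library is liver RNA of 1 mouse on 1 array, so fewer cells of a type and less RNA per cell cannot be told apart.

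Interferons bind receptors that act through JAK kinases and STAT proteins. Type I interferon leads to ISGF3, a complex that includes Stat2 and Irf9 and binds the interferon-stimulated response element (ISRE) in promoters, while the response to interferon gamma runs through the gamma-activated site (GAS). The genes switched on include antiviral effectors, GTPases that attack the compartments of intracellular microbes, and the class I pathway, in which the immunoproteasome cuts proteins, the transporter of Tap1 and Tap2 carries peptides into the endoplasmic reticulum, and a heavy chain with B2m displays them. Class II molecules present peptides taken up from outside the cell and are made mainly by B cells, dendritic cells and macrophages, under the transactivator Ciita. In the liver most cells are hepatocytes, which express class I, while Kupffer cells are the resident macrophages.

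Promoter sequence is shown for 3 members. B2m and Igtp are among the members whose signal, scaled as described below, fell under CR. Isg15, which missed the threshold, has 3 overlapping ISRE matches. A match is a description of the letters, not evidence of binding. The windows are the 250 bases before the annotated start in RefSeq (GRCm38.p6), in lower case, with capitals on matches to the ISRE letters (GAAA and GAAA with any 2 bases between) or the GAS letters (TTC and GAA with any 3 bases between) on either strand. B2m lies at chr2:122147437-122147686 on the + strand, Igtp at chr11:58199306-58199555 on the + strand and Isg15 at chr4:156200819-156201068 on the - strand.
B2m: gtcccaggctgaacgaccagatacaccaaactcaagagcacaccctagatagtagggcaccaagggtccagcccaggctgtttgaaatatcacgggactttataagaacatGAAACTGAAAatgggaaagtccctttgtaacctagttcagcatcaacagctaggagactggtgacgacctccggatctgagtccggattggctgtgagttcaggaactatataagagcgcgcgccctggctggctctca
Igtp: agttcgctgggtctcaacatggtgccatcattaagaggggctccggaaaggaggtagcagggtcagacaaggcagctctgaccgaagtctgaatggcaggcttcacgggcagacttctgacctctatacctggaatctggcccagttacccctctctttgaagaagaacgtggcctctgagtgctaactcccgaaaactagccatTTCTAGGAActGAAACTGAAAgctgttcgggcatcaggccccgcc
Isg15: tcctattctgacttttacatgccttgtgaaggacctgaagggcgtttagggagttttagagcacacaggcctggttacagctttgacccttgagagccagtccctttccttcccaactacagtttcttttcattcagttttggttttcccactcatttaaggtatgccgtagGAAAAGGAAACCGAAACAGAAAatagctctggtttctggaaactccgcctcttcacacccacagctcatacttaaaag
The B2m window held 1 ISRE match, which began 139 bases before the start. The Igtp window held a GAS match 45 bases and an ISRE match 34 bases before the start. In Isg15 the ISRE letters matched at 78, 72 and 66 bases before the start, and each of these 3 matches overlaps the next. Of the 45 members, 36 had a window of 300 bases (250 before to 50 after the start), and 14 of these 36 (38.9%) held an ISRE match, against 3.44% of all 32851 RefSeq windows of that length. A GAS match was in 7 of the 36 (19.4%), against 8.3% of all windows. Members were counted with 1 window each, while the background was counted by window and not by gene. The members were listed for their part in interferon response and antigen presentation, so these shares are a description and no test. By class an ISRE match was in 4 of 4 GTPases, 6 of 12 interferon-stimulated genes, 3 of 11 class I genes, 1 of 5 regulators and 0 of 4 class II genes. The Tap1 and Psmb9 genes start close together on opposite strands, and their windows share 275 of 300 bases and held neither motif. No window was given for Ly6e. Over all tested genes with a window, 9 of 228 with an ISRE match (3.95%) fell under CR averaged over genotypes, against 263 of 7052 without one (3.73%). With a GAS match 10 of 502 (1.99%) fell, against 262 of 6778 without one (3.87%).

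Values below are scaled log2 signals, in which 0 is the mean of all probes of an array and 1 unit is about a doubling of signal, with each array's spread set to the same size. Each probe reads on its own scale, so levels of different genes are not compared. The SD of log2 signal before scaling was 1.758 to 2.001 on CR arrays and 1.704 to 1.914 on AL arrays. A wider spread lowers bright probes after scaling, so effects on bright probes depend on this step. The arrays detected 10726 to 11386 probes. In 7 libraries, 5 of the 9 CR ones and 2 of the 9 AL ones, Xist was high and no Y-linked transcript was detected, although every sample is labelled male. The study's methods give both sexes. The 7 were replicates 1 and 3 of CR SIRT1+/+, 2 of CR SIRT1+/-, and 2 and 3 of both CR and AL SIRT1-/-. Every AL SIRT1+/+ and AL SIRT1+/- library held a Y-linked transcript. Diet comparisons in those 2 genotypes are therefore partly mixed with this difference, as is SIRT1-/- minus SIRT1+/+ on AL. AL SIRT1-/- replicate 4 stood apart, with a median correlation of 0.942 with the other libraries, against 0.957 to 0.975 in the rest, and with Saa1, an acute-phase gene, at 4.30. All CR columns precede the AL columns in the deposited tables, so any effect of that order cannot be told apart from diet. The Sirt1 probe read 0.89 to 1.68 in SIRT1-/- libraries and 1.01 to 1.92 in SIRT1+/+ libraries, but its position relative to the deletion is unknown, so it checks no label. The library labelled AL SIRT1-/- replicate 1 carries a doubt, because the ratios tabulated by the study are met when it is counted as AL SIRT1+/- and not as labelled. Counted that way, 3 of 40 members (Igtp, Isg15 and Ly6e) fell in the averaged comparison described next. The labels were kept, and values for SIRT1+/- and SIRT1-/- livers carry this limit.

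CR changed 4 of the 40 members when averaged over the 3 genotypes, and each of the 4 fell (limma, adjusted p under 0.05 over 8950 genes). They were B2m and Tap1 of class I presentation, Ly6e among the interferon-stimulated genes and the GTPase Igtp. No member rose, while 6.41% of all genes did. Over all genes 3.63% fell, and the share of members that fell was 10%. The background split is sensitive to scaling, since 574 genes rose and 325 fell here, while 499 rose and 490 fell after neqc normalization. The log2 difference, CR minus AL, was below 0 in 31 of the 40 members (77.5%), against 45.5% of all genes, and the median difference was -0.13 over members and 0.03 over all genes. By class the median was -0.02 in class I, -0.32 in class II, -0.08 in regulators, -0.13 in interferon-stimulated genes and -0.16 in GTPases. The 4 calls did not all hold elsewhere. With the Y-linked signal as a covariate 1 member passed (Igtp, with 491 genes called in all), and among the 11 libraries with a Y-linked transcript 0 passed (67 genes called in all). Without AL SIRT1+/- replicate 1, which leaves that group 1 library assumed to vary like the others, 0 of 40 passed.

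**Figure D1:**
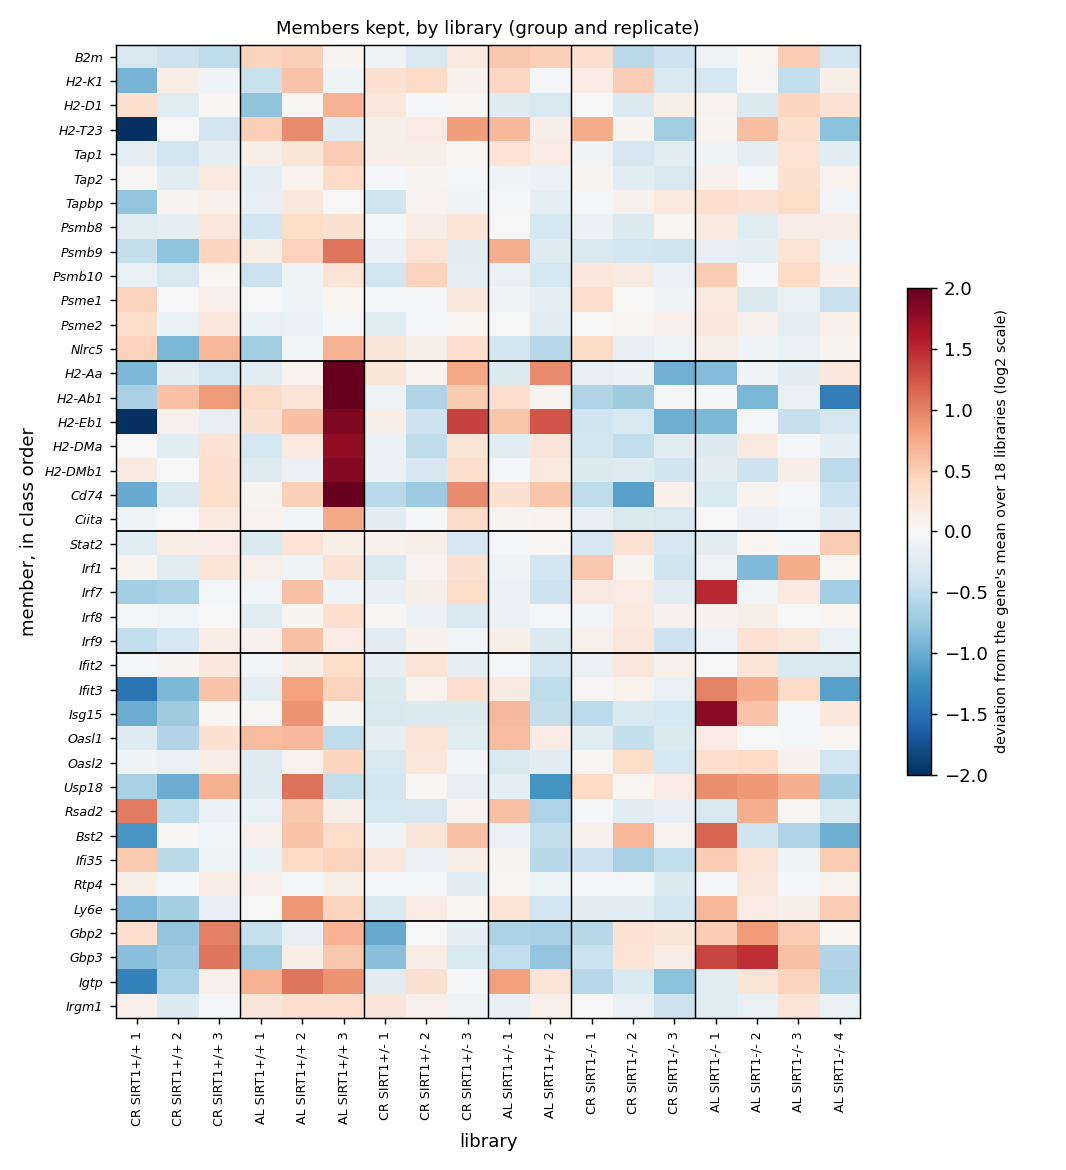
Deviation of each kept member from its own mean over 18 libraries (log2 scale, color limits at 2 units), with members in rows by class and libraries in columns by group. The class II rows are highest in AL SIRT1+/+ replicate 3, and the Isg15, Bst2 and Irf7 rows in AL SIRT1-/- replicate 1.

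In class I presentation 2 of 13 members fell and none rose. B2m, the light chain that every class I heavy chain needs at the cell surface, had a lower scaled signal on CR averaged over genotypes. B2m measured 6.75, 6.66 and 6.57 in CR SIRT1+/+ livers, against 7.53, 7.56 and 7.13 in AL SIRT1+/+ livers. B2m values in SIRT1+/- livers were 7.0, 6.75 and 7.28 on CR, against 7.61 and 7.55 on AL. B2m gave 7.40, 6.54 and 6.67 in CR SIRT1-/- livers, against 6.98, 7.12, 7.59 and 6.71 in AL SIRT1-/- livers. The CR and AL values did not overlap in SIRT1+/+ or SIRT1+/- livers and overlapped in SIRT1-/- livers. B2m had an averaged CR effect of -0.51 (standard error 0.14, limma adjusted p = 0.029), and the second B2m probe gave -0.44. B2m lay near the top of the scale, with 71 to 180 probes of an array brighter than it, and with the array's highest value between 7.29 and 8.83 on CR and between 7.67 and 9.02 on AL. Before scaling, B2m signal ran from 12051 to 21414 on CR arrays and from 13111 to 21865 on AL arrays. The lower level on CR is thus one of normalized values. After quantile normalization the B2m effect was -0.20 (limma adjusted p = 0.0667) and after neqc -0.20 (adjusted p = 0.102). Both its size and its call therefore rest on the scaling. The call was also lost without any 1 of 7 libraries, namely replicate 2 of CR SIRT1+/-, 2 and 3 of CR SIRT1-/-, 1 and 2 of AL SIRT1+/+ and 1 and 2 of AL SIRT1+/-, with adjusted p from 0.0532 to 0.0878.

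Tap1, a subunit of the peptide transporter, had a small difference, with the widest gap between group means in SIRT1+/+ livers, where it averaged -0.14 ± 0.12 on CR and 0.40 ± 0.20 on AL (SD, n = 3 each). Tap1 across SIRT1+/+ livers stood at -0.07, -0.27 and -0.06 on CR and at 0.23, 0.36 and 0.62 on AL. Tap1 in SIRT1+/- livers stood at 0.24, 0.23 and 0.14 on CR and at 0.38 and 0.28 on AL. Tap1 read 0.04, -0.22 and -0.11 on CR and 0.04, -0.08, 0.39 and -0.10 on AL in livers with no SIRT1. The diets separated without overlap in SIRT1+/+ and SIRT1+/- livers, while the SIRT1-/- values overlapped. Tap1 had an averaged CR effect of -0.28 (standard error 0.08, limma adjusted p = 0.0449). Tap1 passed in 13 of 30 alternatives, with adjusted p from 0.0124 to 0.297, and in 5 of 18 fits that left out 1 library. Those 5 left out replicate 1 in the CR SIRT1+/+, CR SIRT1-/- or AL SIRT1+/+ group, or replicate 2 or 4 of AL SIRT1-/-. Tap2, the partner subunit, had a log2 difference of -0.09 (adjusted p = 0.556).

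Psmb9, the immunoproteasome subunit whose start lies beside that of Tap1, did not pass. On CR, Psmb9 was 1.35, 1.02 and 2.25 in SIRT1+/+ livers, against 1.96, 2.28 and 2.90 on AL. Psmb9 was 1.71, 2.09 and 1.62 in CR SIRT1+/- livers, against 2.55 and 1.57 in AL SIRT1+/- livers. Psmb9 reached 1.52, 1.46 and 1.42 in CR SIRT1-/- livers, against 1.66, 1.65, 2.09 and 1.72 in AL SIRT1-/- livers. AL SIRT1+/+ replicate 3 was the highest of the 18 libraries, and the diets separated only in SIRT1-/- livers. Psmb9 had an averaged CR effect of -0.47 (standard error 0.18, limma adjusted p = 0.103). Psme1, a subunit of the proteasome activator PA28, ran the other way without passing. Psme1 measured 4.83, 4.38 and 4.49 in CR SIRT1+/+ livers, against 4.39, 4.31 and 4.43 in AL SIRT1+/+ livers. Psme1 values in SIRT1+/- livers were 4.37, 4.37 and 4.61 on CR, against 4.30 and 4.20 on AL. Psme1 gave 4.73, 4.39 and 4.32 in CR SIRT1-/- livers, against 4.58, 4.10, 4.24 and 3.95 in AL SIRT1-/- livers. CR values lay above AL values in SIRT1+/- livers and overlapped them in the other genotypes. Psme1 had an averaged CR effect of 0.22 (standard error 0.10, adjusted p = 0.157), and its second probe gave -0.07.

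The other 9 class I members had averaged log2 differences from -0.51 to 0.28, and none passed. They were the heavy chains H2-K1 and H2-D1, H2-T23 (the heavy chain of Qa-1), Tap2, the loading factor Tapbp, the immunoproteasome subunits Psmb8 and Psmb10, the activator subunit Psme2 and the class I transactivator Nlrc5. Tapbp is a case where probes disagree, with -0.14 (adjusted p = 0.481) for the brightest probe and -0.40 (adjusted p = 0.0173, in a fit of single probes) for a dimmer probe detected in 9 libraries. The class I heavy chains form a family of similar sequences, and whether these probes read related transcripts was not tested.

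A few histocompatibility probes were low or not detected in some livers and well above background in others. H2-T23 read 2.00 in CR SIRT1+/+ replicate 1 and 4.13 to 5.89 in the other 17 libraries, and the second H2-T23 probe was not detected in that library, at -1.12 against 2.54 to 4.15 elsewhere. In the same library H2-Eb1 was not detected, at -0.94, and H2-Aa was not detected, at -0.98. H2-Bl, a related class I gene outside the member list, was not detected in 5 libraries (-1.12 to -0.91) and read 1.60 to 3.38 in the other 13. The 5 were all 3 CR SIRT1+/+ livers, CR SIRT1-/- replicate 3 and AL SIRT1-/- replicate 1. Its CR effect in SIRT1+/+ was -2.93 (standard error 0.84, limma adjusted p = 0.12). H2-Ea, a class II alpha chain gene outside the member list that C57BL/6 mice are known not to express, was detected in 11 libraries (1.06 to 2.63) and not in the other 7 (-1.43 to -1.04). On CR it was missed in replicate 1 of the SIRT1+/+ livers and replicate 3 of the SIRT1+/- livers, and on AL in replicate 3 of SIRT1+/+, replicate 2 of SIRT1+/- and replicates 2, 3 and 4 of SIRT1-/-. H2-Ea had an averaged CR effect of 0.79 (standard error 0.70, limma adjusted p = 0.488). Tap1, Psmb8, Psmb9 and Tapbp lie on chr17, as do the H2 members with a promoter window. The part of the mice's strain in the values of these genes, and in the other H2 values above, was not tested.

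**Figure D2:**
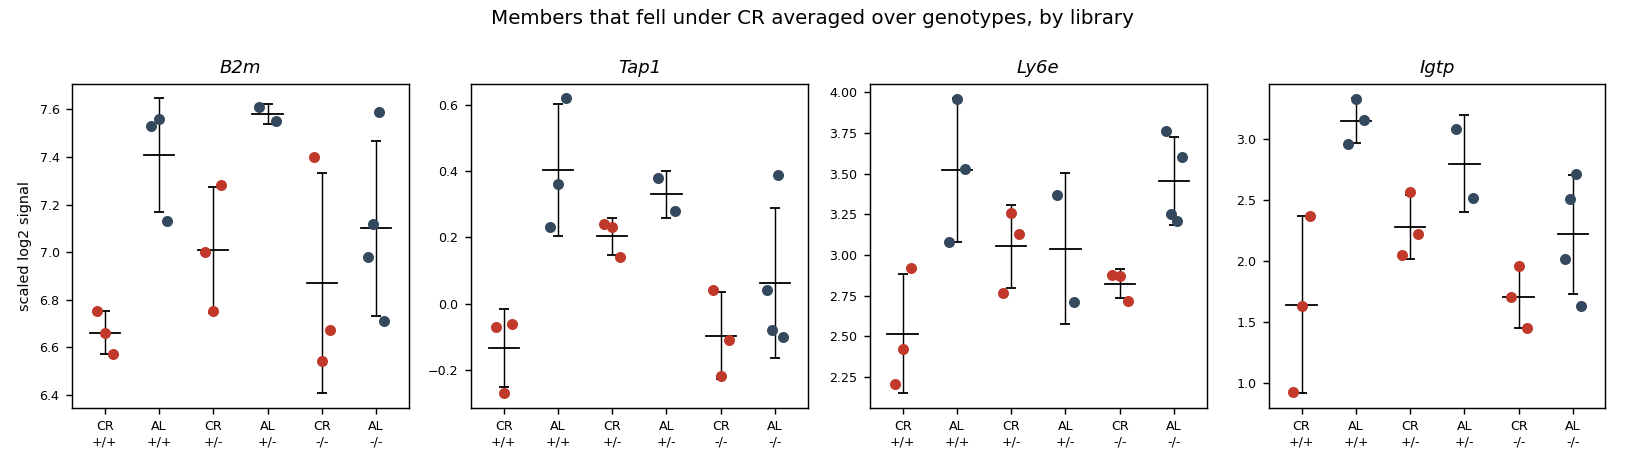
Scaled log2 signal of B2m, Tap1, Ly6e and Igtp in each library (points), with the group mean and SD (bars), CR in red left of AL in dark blue for each genotype. The 3 CR SIRT1+/+ livers lie below the 3 AL SIRT1+/+ livers in each panel, and the SIRT1-/- groups overlap for B2m, Tap1 and Igtp.

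No class II member passed for the averaged CR effect, although all 7 had a log2 difference below 0 and 2 of 7 were lower at an unadjusted p under 0.05, against 11.5% of all genes. H2-Eb1 is a beta chain of a class II molecule. H2-Eb1 across SIRT1+/+ livers stood at -0.94, 1.30 and 1.05 on CR and at 1.51, 1.82 and 3.08 on AL. H2-Eb1 in SIRT1+/- livers stood at 1.35, 0.80 and 2.56 on CR and at 1.77 and 2.47 on AL. H2-Eb1 read 0.82, 0.89 and 0.24 on CR and 0.31, 1.17, 0.75 and 0.87 on AL in livers with no SIRT1. CR SIRT1+/+ replicate 1 was at the level of an undetected probe and AL SIRT1+/+ replicate 3 was the highest library. H2-Eb1 had an averaged CR effect of -0.78 (standard error 0.33, limma adjusted p = 0.133). Cd74, the invariant chain that escorts class II molecules, did not pass either. On CR, Cd74 was 1.74, 2.47 and 3.10 in SIRT1+/+ livers, against 2.81, 3.23 and 4.83 on AL. Cd74 was 2.21, 2.03 and 3.69 in CR SIRT1+/- livers, against 3.06 and 3.30 in AL SIRT1+/- livers. Cd74 reached 2.25, 1.67 and 2.84 in CR SIRT1-/- livers, against 2.45, 2.81, 2.72 and 2.32 in AL SIRT1-/- livers. The diets overlapped in all 3 genotypes. Cd74 had an averaged CR effect of -0.68 (standard error 0.30, adjusted p = 0.149), and the second Cd74 probe gave -0.63.

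H2-Aa is an alpha chain of the other mouse class II molecule. H2-Aa measured -0.98, -0.29 and -0.46 in CR SIRT1+/+ livers, against -0.32, -0.01 and 2.01 in AL SIRT1+/+ livers. H2-Aa values in SIRT1+/- livers were 0.16, -0.01 and 0.70 on CR, against -0.37 and 0.87 on AL. H2-Aa gave -0.25, -0.19 and -1.04 in CR SIRT1-/- livers, against -0.95, -0.15, -0.29 and 0.14 in AL SIRT1-/- livers. AL SIRT1+/+ replicate 3 lay more than 1 unit above the other 17 libraries, and H2-Aa was not detected in replicate 1 of CR SIRT1+/+, 3 of CR SIRT1-/- or 1 of AL SIRT1-/-. H2-Aa had an averaged CR effect of -0.43 (standard error 0.29, limma adjusted p = 0.362). H2-DMa, a chain of the DM peptide exchanger, showed the same high library. H2-DMa across SIRT1+/+ livers stood at 0.43, 0.21 and 0.70 on CR and at 0.06, 0.61 and 2.19 on AL. H2-DMa in SIRT1+/- livers stood at 0.30, -0.10 and 0.66 on CR and at 0.21 and 0.68 on AL. H2-DMa read 0.04, -0.07 and 0.19 on CR and 0.14, 0.61, 0.37 and 0.23 on AL in livers with no SIRT1. Outside AL SIRT1+/+ replicate 3 no library exceeded 0.70. H2-DMa had an averaged CR effect of -0.32 (standard error 0.22, adjusted p = 0.375). H2-Ab1 and H2-DMb1 had averaged differences of -0.25 and -0.16 and did not pass, and 4 H2-Ab1 probes gave -0.25 to -1.18. Ciita, at -0.13, was detected in 2 libraries, AL SIRT1+/+ replicate 3 and CR SIRT1+/- replicate 3.

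AL SIRT1+/+ replicate 3 was the highest library for 7 of 7 class II members, with a median deviation of 1.87 from the members' own means, against -0.64 to 0.52 in the other 17 libraries. The CR effect in SIRT1+/+ had a class II median of -0.68 with that library and -0.06 without it. Averaged over genotypes the class II median was -0.32 with it and -0.11 without it. In the same library the macrophage marker Adgre1 was at 1.59, against -0.37 to 0.74 elsewhere. Coro1a, 1 of 5 genes of all leukocytes kept, was at 1.60 against 0.03 to 1.04. Cd79b, the only B cell marker kept, was at 0.07 against -1.09 to -0.36. Over the 9 macrophage markers measured, the library's median deviation was 0.73, against -0.44 to 0.43 in the other libraries. Over the 3 T cell markers kept it was 0.59, against -0.24 to 0.40. The dendritic cell, plasma cell, NK cell and neutrophil lists were not highest in this library. The part of these cells in the class II values was not tested.

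**Figure D3:**
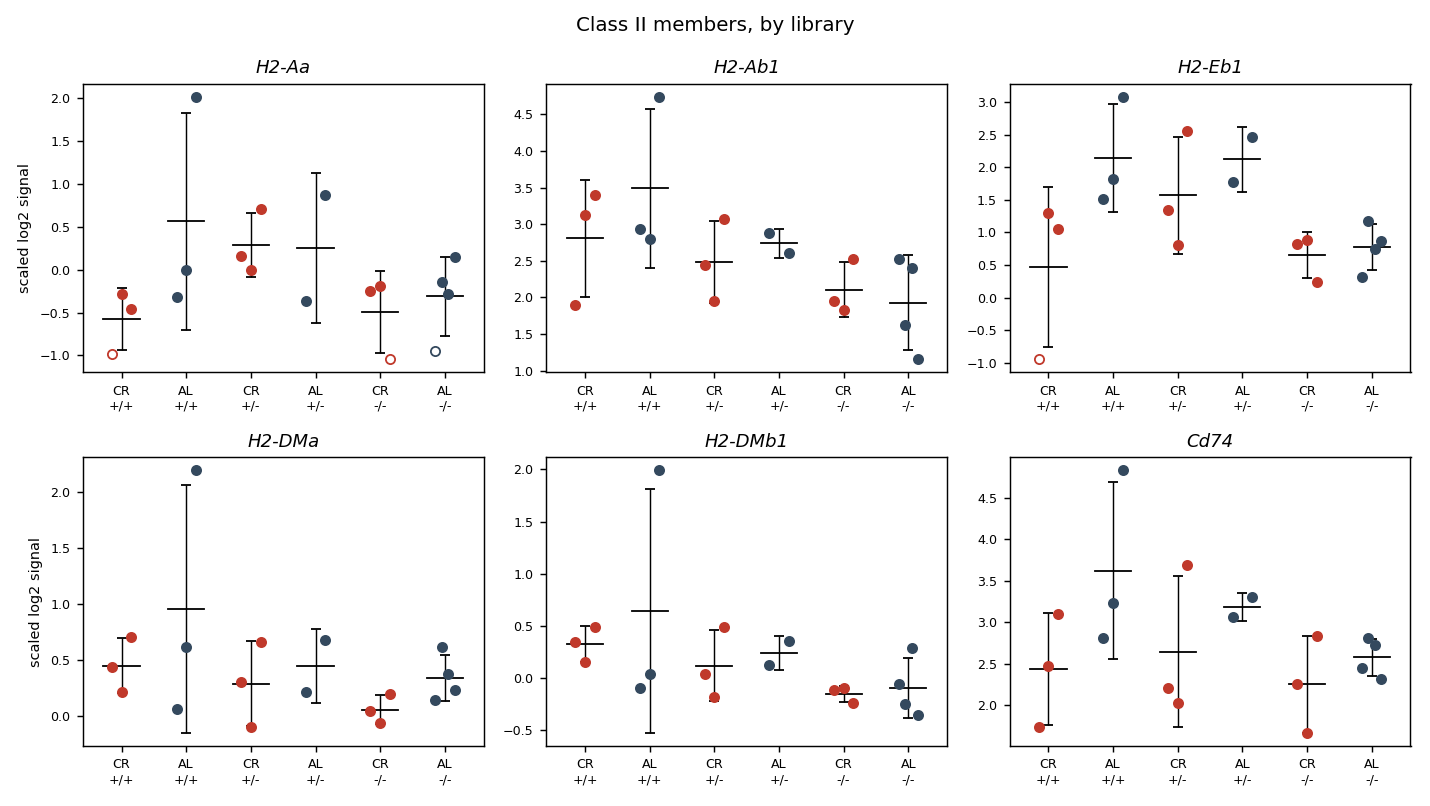
Scaled log2 signal of 6 class II members in each library (points; open points were not detected), with group mean and SD, CR in red left of AL in dark blue. AL SIRT1+/+ replicate 3, the highest point of each panel, reaches 4.83 for Cd74 and 4.74 for H2-Ab1.

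Of the 5 interferon regulators, none passed. Irf9, the DNA-binding part of ISGF3, did not separate the diets. On CR, Irf9 was 1.61, 1.75 and 2.25 in SIRT1+/+ livers, against 2.20, 2.70 and 2.27 on AL. Irf9 was 1.89, 2.19 and 2.05 in CR SIRT1+/- livers, against 2.23 and 1.83 in AL SIRT1+/- livers. Irf9 reached 2.21, 2.34 and 1.70 in CR SIRT1-/- livers, against 2.00, 2.4, 2.34 and 1.97 in AL SIRT1-/- livers. CR SIRT1+/+ replicates 1 and 2 were among the lowest libraries, and the diets overlapped in each genotype. Irf9 had an averaged CR effect of -0.20 (standard error 0.12, limma adjusted p = 0.314), and its second probe had one of -0.39 (adjusted p = 0.0721). Stat2, its partner, read 0.76 to 1.60 over all libraries, with an averaged effect of -0.08 (adjusted p = 0.712). Stat2 measured 0.85, 1.25 and 1.26 in CR SIRT1+/+ livers, against 0.81, 1.37 and 1.22 in AL SIRT1+/+ livers. Stat2 values in SIRT1+/- livers were 1.19, 1.23 and 0.76 on CR, against 1.06 and 1.14 on AL. Stat2 gave 0.76, 1.38 and 0.76 in CR SIRT1-/- livers, against 0.87, 1.13, 1.06 and 1.60 in AL SIRT1-/- livers. No group of Stat2 values stood apart.

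Irf7, the factor that amplifies interferon production, had 1 liver far above the rest. Irf7 across SIRT1+/+ livers stood at -0.86, -0.81 and -0.20 on CR and at -0.24, 0.41 and -0.26 on AL. Irf7 in SIRT1+/- livers stood at -0.34, -0.06 and 0.18 on CR and at -0.32 and -0.59 on AL. Irf7 read 0.00, -0.02 and -0.41 on CR and 1.33, -0.23, 0.02 and -0.88 on AL in livers with no SIRT1. AL SIRT1-/- replicate 1, at 1.33, was the highest of all libraries, and Irf7 was not detected in CR SIRT1+/+ replicates 1 and 2 or AL SIRT1-/- replicate 4. Irf7 had an averaged CR effect of -0.14 (standard error 0.23, limma adjusted p = 0.741) with that liver and 0.00 without it. Irf1, an interferon gamma target that itself binds the response element, did not pass either. On CR, Irf1 was 4.04, 3.78 and 4.24 in SIRT1+/+ livers, against 4.08, 3.90 and 4.27 on AL. Irf1 was 3.68, 4.06 and 4.29 in CR SIRT1+/- livers, against 3.88 and 3.6 in AL SIRT1+/- livers. Irf1 reached 4.52, 4.04 and 3.58 in CR SIRT1-/- livers, against 3.89, 3.10, 4.73 and 4.03 in AL SIRT1-/- livers. The widest spread was within AL SIRT1-/- livers. Irf1 had an averaged CR effect of 0.10 (standard error 0.19, adjusted p = 0.757). Irf8, a factor of myeloid cells, was detected in 9 libraries, with a difference of -0.03.

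Among the 11 interferon-stimulated genes kept, 1 fell. Ly6e, an interferon-induced surface protein, was lower on CR averaged over genotypes and did not pass within any genotype. Ly6e measured 2.21, 2.42 and 2.92 in CR SIRT1+/+ livers, against 3.08, 3.96 and 3.53 in AL SIRT1+/+ livers. Ly6e values in SIRT1+/- livers were 2.77, 3.26 and 3.13 on CR, against 3.37 and 2.71 on AL. Ly6e gave 2.88, 2.87 and 2.72 in CR SIRT1-/- livers, against 3.76, 3.25, 3.21 and 3.6 in AL SIRT1-/- livers. The diets did not overlap in SIRT1+/+ or SIRT1-/- livers, and the SIRT1+/- values lay together. Ly6e had an averaged CR effect of -0.54 (standard error 0.14, limma adjusted p = 0.0282). Without the 3 libraries that stand apart it was -0.47 (adjusted p = 0.0706), a setting chosen after seeing the data. Those 3 were AL SIRT1-/- replicates 1 and 4 and AL SIRT1+/+ replicate 3. The Ly6e call was also lost without any 1 of 5 libraries, namely replicate 2 in the CR SIRT1+/+, CR SIRT1-/- or AL SIRT1+/+ group and replicate 1 in either SIRT1+/- group, with adjusted p from 0.0505 to 0.125.

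Isg15, a ubiquitin-like protein that is coupled to other proteins after interferon, had the largest averaged difference of this class but missed the threshold. Isg15 across SIRT1+/+ livers stood at -0.20, 0.07 and 0.83 on CR and at 0.81, 1.68 and 0.84 on AL. Isg15 in SIRT1+/- livers stood at 0.48, 0.50 and 0.52 on CR and at 1.44 and 0.31 on AL. Isg15 read 0.27, 0.48 and 0.43 on CR and 2.59, 1.36, 0.77 and 1.00 on AL in livers with no SIRT1. The CR SIRT1+/- and CR SIRT1-/- values were tight, from 0.27 to 0.52, while AL SIRT1-/- replicate 1 reached 2.59. Every CR value lay below every AL value in SIRT1-/- livers. Isg15 had an averaged CR effect of -0.76 (standard error 0.24, limma adjusted p = 0.0566), and it passed in 10 of 30 alternatives, with adjusted p from 0.022 to 0.231. Leaving out replicate 3 of CR SIRT1+/+, 2 of AL SIRT1+/- or 1, 3 or 4 of AL SIRT1-/- gave 5 of these, with adjusted p from 0.0378 to 0.0469.

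Oasl1, a relative of the oligoadenylate synthetases, was detected in 9 of 18 libraries. On CR, Oasl1 was -0.83, -1.16 and -0.26 in SIRT1+/+ livers, against 0.06, 0.08 and -1.07 on AL. Oasl1 was -0.77, -0.31 and -0.81 in CR SIRT1+/- livers, against 0.06 and -0.41 in AL SIRT1+/- livers. Oasl1 reached -0.81, -1.05 and -0.85 in CR SIRT1-/- livers, against -0.41, -0.56, -0.59 and -0.53 in AL SIRT1-/- livers. The diets separated in SIRT1-/- livers, and AL SIRT1+/+ replicate 3 was low and not detected. Oasl1 had an averaged CR effect of -0.43 (standard error 0.16, limma adjusted p = 0.101), and without that library it passed with an adjusted p of 0.0146. The second Oasl1 probe, detected in 6 of 18 libraries, also differed by -0.43 and passed (adjusted p = 0.0403). Ifi35, an interferon-induced leucine zipper protein, differed most in SIRT1-/- livers. Ifi35 measured 0.88, -0.18 and 0.26 in CR SIRT1+/+ livers, against 0.23, 0.76 and 0.81 in AL SIRT1+/+ livers. Ifi35 values in SIRT1+/- livers were 0.59, 0.23 and 0.49 on CR, against 0.42 and -0.19 on AL. Ifi35 gave -0.06, -0.29 and -0.13 in CR SIRT1-/- livers, against 0.86, 0.63, 0.27 and 0.86 in AL SIRT1-/- livers. All 3 CR SIRT1-/- values were below 0 and all 4 AL SIRT1-/- values above it. Ifi35 had an averaged CR effect of -0.26 (standard error 0.15, adjusted p = 0.268).

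The other 7 kept genes of this class had averaged differences from -0.35 to 0.09, and none passed. They were Ifit2 and Ifit3, which bind viral RNA, Usp18, which removes Isg15 from proteins, Rsad2 (viperin), Bst2 (tetherin), Oasl2 and Rtp4. Ifit3 ran from 0.16 in CR SIRT1+/+ replicate 1 to 2.62 in AL SIRT1-/- replicate 1. Bst2 had its lowest value, 0.99, and its highest, 3.33, in the same 2 livers. Ifit2 and Rtp4 were detected in 6 and 7 libraries. AL SIRT1-/- replicate 1 was the highest library for 3 of 11 members and AL SIRT1+/+ replicate 2 for 3 of 11.

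**Figure D4:**
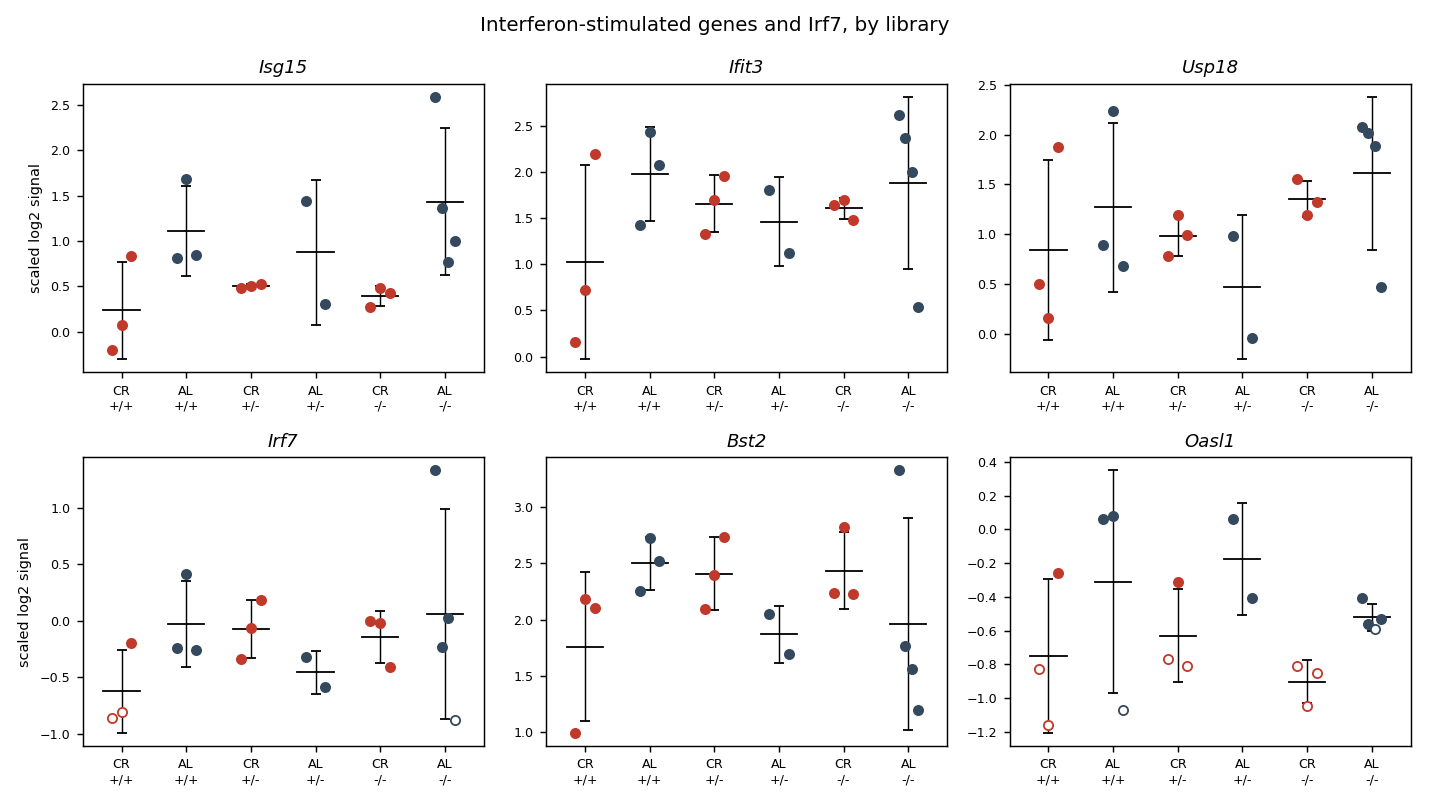
Scaled log2 signal of Isg15, Ifit3, Usp18, Irf7, Bst2 and Oasl1 in each library (points; open points were not detected), with group mean and SD, CR in red left of AL in dark blue. AL SIRT1-/- replicate 1 is the highest point for Isg15 (2.59), Ifit3 (2.62), Irf7 (1.33) and Bst2 (3.33).

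Of the 4 interferon-inducible GTPases kept, Igtp fell. Igtp, also called Irgm3, acts at the vacuoles of intracellular parasites. Igtp across SIRT1+/+ livers stood at 0.92, 1.63 and 2.37 on CR and at 2.96, 3.33 and 3.16 on AL. Igtp in SIRT1+/- livers stood at 2.05, 2.57 and 2.22 on CR and at 3.08 and 2.52 on AL. Igtp read 1.70, 1.96 and 1.45 on CR and 2.02, 2.51, 2.71 and 1.63 on AL in livers with no SIRT1. Every CR SIRT1+/+ value lay below every AL SIRT1+/+ value, and the diets overlapped in the other genotypes. Igtp had an averaged CR effect of -0.85 (standard error 0.19, limma adjusted p = 0.014), and Igtp passed in 28 of 30 alternatives. The exceptions were the libraries with a Y-linked transcript (adjusted p = 0.0622) and the fit without AL SIRT1+/- replicate 1 (adjusted p = 0.0623).

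The GTPases Irgm1, Gbp3 and Gbp2 did not pass. Irgm1, which controls the other Irg proteins, moved in a narrow band. On CR, Irgm1 was 4.92, 4.56 and 4.81 in SIRT1+/+ livers, against 5.08, 5.15 and 5.15 on AL. Irgm1 was 5.08, 4.93 and 4.74 in CR SIRT1+/- livers, against 4.67 and 4.94 in AL SIRT1+/- livers. Irgm1 reached 4.84, 4.68 and 4.42 in CR SIRT1-/- livers, against 4.59, 4.69, 5.09 and 4.71 in AL SIRT1-/- livers. The diets separated in SIRT1+/+ livers alone among the genotypes. Irgm1 had an averaged CR effect of -0.13 (standard error 0.09, limma adjusted p = 0.391).

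Gbp3, a guanylate-binding protein, varied by more than 2 units among mice. Gbp3 measured 0.20, 0.30 and 2.10 in CR SIRT1+/+ livers, against 0.34, 1.16 and 1.57 in AL SIRT1+/+ livers. Gbp3 values in SIRT1+/- livers were 0.20, 1.17 and 0.73 on CR, against 0.54 and 0.24 on AL. Gbp3 gave 0.60, 1.28 and 1.18 in CR SIRT1-/- livers, against 2.37, 2.49, 1.61 and 0.44 in AL SIRT1-/- livers. CR SIRT1+/+ replicate 3 and AL SIRT1-/- replicates 1 and 2 were the highest. Gbp3 had an averaged CR effect of -0.19 (standard error 0.32, limma adjusted p = 0.743). Gbp2 had the same 3 libraries high or near the top. Gbp2 across SIRT1+/+ livers stood at 1.63, 0.51 and 2.31 on CR and at 0.84, 1.13 and 1.99 on AL. Gbp2 in SIRT1+/- livers stood at 0.30, 1.29 and 1.12 on CR and at 0.67 and 0.65 on AL. Gbp2 read 0.74, 1.59 and 1.55 on CR and 1.80, 2.16, 1.81 and 1.34 on AL in livers with no SIRT1. The values crossed between diets in every genotype. Gbp2 had an averaged CR effect of -0.03 (standard error 0.24, adjusted p = 0.954).

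**Figure D5:**
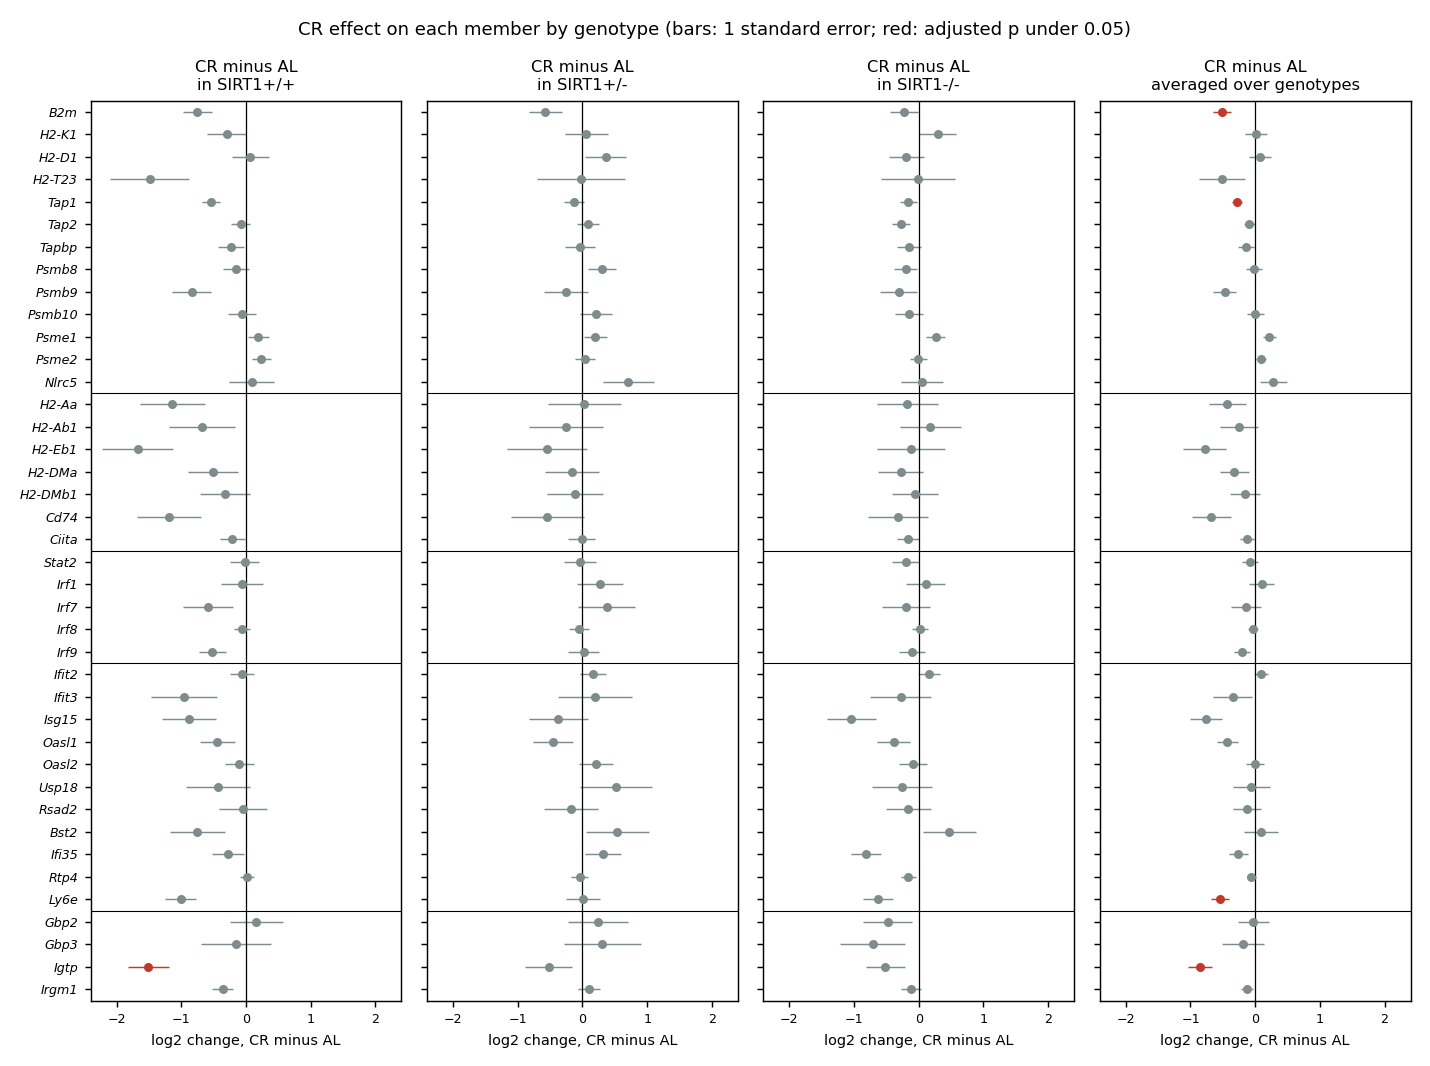
Log2 change, CR minus AL, of each kept member in SIRT1+/+, SIRT1+/- and SIRT1-/- livers and averaged over genotypes (points, with 1 standard error; red where the adjusted p was under 0.05). In SIRT1+/+ livers Igtp, at -1.51, is the member that passed, and 34 of 40 members lie below 0.

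Within genotypes the members' calls were few. In SIRT1+/+ livers CR lowered 1 of 40 members, Igtp, with a log2 change of -1.51 (standard error 0.32, limma adjusted p = 0.046), where 0.391% of all genes fell. This call was lost in 19 of 31 alternatives, with adjusted p up to 0.183. Among the 18 fits that left out 1 library it was kept in 4, those without replicate 3 of CR SIRT1+/+, 2 of CR SIRT1+/- or 3 or 4 of AL SIRT1-/-. The difference was below 0 in 34 of 40 members, against 45.2% of all genes, and 12 of 40 were lower at an unadjusted p under 0.05, against 5.9% of all genes. Class medians were -0.15 in class I, -0.68 in class II, -0.06 in regulators, -0.43 in interferon-stimulated genes and -0.26 in GTPases. In SIRT1+/- livers 0 of 40 members passed (0.0223% of all genes did), 18 of 40 lay below 0, against 45.1% of all genes, and 1 of 40 was lower at an unadjusted p under 0.05, against 3.25% of all genes. In SIRT1-/- livers 0 of 40 members passed (0.145% of all genes did), 32 of 40 lay below 0, against 47.8% of all genes, and 3 of 40 were lower at an unadjusted p under 0.05, against 6.48% of all genes. Those 3 were Isg15 (-1.04), Ifi35 (-0.82) and Ly6e (-0.63), and their count is near the share of all genes.

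Whether the CR effect differed between genotypes was tested directly. The CR effect in SIRT1-/- minus that in SIRT1+/+ was past the threshold for 0 of 40 members, against 0.0223% of all genes. Igtp fell in SIRT1+/+ livers and did not pass in SIRT1-/- livers (-0.52, standard error 0.30), but the difference of 0.99 (standard error 0.44) had a limma adjusted p of 0.911. The comparisons share libraries and hold 2 to 4 mice a group, so a missed threshold does not show equal effects.

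No member passed the test for SIRT1 genotype within either diet. On AL, SIRT1-/- minus SIRT1+/+ was past the threshold for 0 of 40 members (0.38% of all genes were), and 6 of 40 were lower at an unadjusted p under 0.05, against 3.5% of all genes. The class II median was -0.87, with 3 of 7 lower at that level. Cd74 averaged 2.57 ± 0.23 in AL SIRT1-/- livers (SD, n = 4) and 3.62 ± 1.06 in AL SIRT1+/+ livers (SD, n = 3), and H2-Eb1 averaged 0.77 ± 0.36 in AL SIRT1-/- livers and 2.14 ± 0.83 in AL SIRT1+/+ livers. Without AL SIRT1+/+ replicate 3 the class II median was -0.15. In CR livers, SIRT1-/- minus SIRT1+/+ was past the threshold for 0 of 40 members and for 0 of 8950 genes, and 0 of 40 members had an unadjusted p under 0.05, against 351 genes (3.92%). The class medians on CR ran from -0.30 in class II to 0.10 in regulators.

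Other genes of the pathway were read from 5 further lists, of which 76 genes were kept. For CR averaged over genotypes 8 of the 76 fell and none rose, where 3.63% of all genes fell and 6.41% rose. Of 33 other interferon-induced genes 4 fell. They were Mx2, an antiviral dynamin-like GTPase, at -0.72 (standard error 0.19, limma adjusted p = 0.0264), Irgm2, an Irg protein like Igtp, at -0.65 (adjusted p = 0.0344), the secreted glycoprotein Lgals3bp at -0.64 (adjusted p = 0.0145) and galectin 9, Lgals9, at -0.40 (adjusted p = 0.049). Lgals3bp was the gene whose CR and AL values did not overlap in any genotype among these 4. On CR, Lgals3bp was 1.74, 1.40 and 2.28 in SIRT1+/+ livers, against 2.52, 3.03 and 2.51 on AL. Lgals3bp was 2.01, 1.91 and 2.13 in CR SIRT1+/- livers, against 2.56 and 2.25 in AL SIRT1+/- livers. Lgals3bp reached 2.11, 1.92 and 1.97 in CR SIRT1-/- livers, against 3.21, 2.78, 2.47 and 2.15 in AL SIRT1-/- livers. AL SIRT1-/- replicate 1 was again the highest. Mx2 measured -0.27, -0.51 and 0.16 in CR SIRT1+/+ livers, against 1.22, 1.37 and 0.41 in AL SIRT1+/+ livers. Mx2 values in SIRT1+/- livers were 0.19, 0.02 and 0.75 on CR, against 1.21 and 0.62 on AL. Mx2 gave 0.99, 0.10 and 0.09 in CR SIRT1-/- livers, against 0.96, 0.44, 1.16 and 0.40 in AL SIRT1-/- livers. Mx2 values separated in SIRT1+/+ livers and overlapped in the others. Irgm2 across SIRT1+/+ livers stood at 1.77, 2.55 and 3.25 on CR and at 3.32, 3.81 and 3.91 on AL. Irgm2 in SIRT1+/- livers stood at 3.25, 3.61 and 3.00 on CR and at 3.45 and 3.07 on AL. Irgm2 read 2.54, 2.61 and 2.13 on CR and 3.19, 3.51, 3.48 and 2.78 on AL in livers with no SIRT1. For Irgm2 the diets separated in SIRT1+/+ and SIRT1-/- livers. On CR, Lgals9 was 3.21, 3.32 and 4.17 in SIRT1+/+ livers, against 4.10, 4.06 and 4.20 on AL. Lgals9 was 3.87, 3.51 and 3.58 in CR SIRT1+/- livers, against 3.97 and 3.96 in AL SIRT1+/- livers. Lgals9 reached 3.74, 3.52 and 4.10 in CR SIRT1-/- livers, against 4.23, 4.18, 4.06 and 4.02 in AL SIRT1-/- livers. The Lgals9 call was lost in 21 of 30 alternatives, over which its effect ran from -0.50 to -0.23. Loss of the Mx2 call came in 7 of 30 (limma adjusted p up to 0.305), 5 of them fits that left out 1 library. The Irgm2 call was lost in 11 of the 18 fits that left out 1 library.

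Of 11 receptor and signalling genes 1 fell. Irf5, a factor downstream of Toll-like receptors in macrophages, changed by -0.61 averaged over genotypes (standard error 0.13, limma adjusted p = 0.0114) and by -1.04 in SIRT1+/+ livers (standard error 0.22, adjusted p = 0.046). Irf5 measured -0.33, -1.09 and -0.65 in CR SIRT1+/+ livers, against -0.10, 0.37 and 0.76 in AL SIRT1+/+ livers. Irf5 values in SIRT1+/- livers were -0.34, -0.95 and -0.49 on CR, against 0.09 and -0.03 on AL. Irf5 gave -0.78, -0.42 and -0.39 in CR SIRT1-/- livers, against -0.48, -0.35, -0.24 and -0.37 in AL SIRT1-/- livers. The diets separated in SIRT1+/+ and SIRT1+/- livers and overlapped in SIRT1-/- livers, and the difference between the SIRT1-/- and SIRT1+/+ effects, 0.86, had an adjusted p of 0.737. The Irf5 probe was dim and detected in 14 of 18 libraries. The Irf5 call in SIRT1+/+ livers was lost in 20 of 31 alternatives (limma adjusted p up to 0.183). It was kept in 4 of the 18 fits that left out 1 library. The interferon receptor chains Ifngr2 and Ifnar2 had values of 0.26 and 0.23 and did not pass.

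Of 9 nucleic acid sensing genes 2 fell, the adaptors Myd88 and Ticam1 (TRIF) that Toll-like receptors use. Myd88 changed by -0.29 (standard error 0.08, limma adjusted p = 0.0331). Myd88 across SIRT1+/+ livers stood at 3.41, 3.67 and 3.12 on CR and at 3.34, 3.54 and 3.53 on AL. Myd88 in SIRT1+/- livers stood at 3.31, 3.24 and 3.53 on CR and at 3.63 and 3.65 on AL. Myd88 read 3.13, 3.15 and 3.05 on CR and 3.45, 3.73, 3.66 and 3.70 on AL in livers with no SIRT1. The diets overlapped in SIRT1+/+ livers only, and the call was lost in 10 of the 18 fits that left out 1 library. Over all 30 alternatives the Myd88 effect ran from -0.34 to -0.15. Ticam1 changed by -0.22 (standard error 0.07, adjusted p = 0.0467), and its call was lost in 22 of 30 alternatives. On CR, Ticam1 was -0.28, -0.53 and -0.27 in SIRT1+/+ livers, against -0.18, -0.07 and -0.24 on AL. Ticam1 was -0.47, -0.31 and -0.33 in CR SIRT1+/- livers, against 0.06 and -0.19 in AL SIRT1+/- livers. Ticam1 reached -0.34, -0.32 and -0.21 in CR SIRT1-/- livers, against -0.21, -0.12, -0.22 and -0.05 in AL SIRT1-/- livers. Its diets overlapped in SIRT1-/- livers only.

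Of 15 other class I pathway genes Psmb7, the constitutive proteasome subunit that Psmb10 replaces in the immunoproteasome, fell by 0.34 (standard error 0.10, limma adjusted p = 0.0471). Psmb7 measured 4.30, 4.53 and 4.51 in CR SIRT1+/+ livers, against 4.93, 4.79 and 4.80 in AL SIRT1+/+ livers. Psmb7 values in SIRT1+/- livers were 4.39, 4.54 and 4.94 on CR, against 4.97 and 4.65 on AL. Psmb7 gave 4.49, 4.23 and 4.64 in CR SIRT1-/- livers, against 5.11, 4.89, 4.52 and 5.07 in AL SIRT1-/- livers. The diets separated in SIRT1+/+ livers, and the call was lost in 23 of 30 alternatives, over which the effect ran from -0.40 to -0.20. Of 8 other class II pathway genes none passed, with a median of -0.09. H2-Ea, described above, was among these 8.

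Markers of other cells were read beside these values. C1qb, made by macrophages, fell by 0.89 on CR (limma adjusted p = 0.0378), 1 of 9 macrophage markers to do so, where 3.63% of all genes fell. The median difference of the 9 was -0.27. Over that list the libraries' median deviation ran from -0.44 to 0.15 on CR and from -0.19 to 0.73 on AL. Lyve1, of sinusoidal endothelium, rose by 0.58 (limma adjusted p = 0.0334), 1 of 7 markers of that type, where 6.41% of all genes rose. Over those 7 the libraries' median deviation ran from -0.33 to 0.36 on CR and from -0.14 to 0.18 on AL. The part of these cell types in the members' values was not tested. The B cell, dendritic cell and T cell lists had 1, 2 and 3 genes kept, of 5, 8 and 7 with a probe. Of 6 hepatocyte markers 5 (Apoa1, Cps1, Hnf4a, Trf and Ttr) were detected in all 18 libraries. The probe for Alb, the serum albumin gene, was detected in 14 of 18 libraries and read only -0.76 to 0.07, with 0 the mean of all probes. The median difference of the 6 was -0.30, with 0 called.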

How the data were processed

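Liver RNA of 18 mice was hybridized to 1 Illumina MouseRef-8 v2 array each. For each probe the authors deposited a BeadStudio 3.4.0 intensity, not background-subtracted, with its detection p-value. The authors also deposited a score, the z-transformed log signal within each array, which the log2 intensities met to within 5e-10. Here the z-scores were multiplied by the mean array SD (1.838) to give a scaled log2 signal. Symbols came from the platform annotation, updated through RefSeq, so that 23978 probes had 1 symbol and 1719 none. Group means of 6 groups were fitted over 8950 genes with limma 3.58.1 in R 4.3.3, with Benjamini-Hochberg adjustment over all of them, two-sided, and a call at an adjusted p under 0.05. P-values set a difference of group means against the spread among mice within groups, pooled over the 6 groups and moderated over genes. With 1 array per mouse, that spread includes differences between arrays. The fit was tested on simulated data. Members, gene lists and tests were chosen with earlier results of these data known. Values in every library are given for members called in any comparison and, in each class, for those of smallest p for the averaged CR effect up to 4, and from the other lists for genes called, up to 5. Other named genes (H2-T23, H2-Bl, H2-Ea, Bst2, Ifit3, Cxcl9) were chosen after their values were seen. Alternatives covered normalization, filters, probes, weights, the replicate number, Y-linked signal, the doubtful label and each library left out. The deposited z-scores, counted as 1 alternative, equal the values used here and could only repeat the main fit. Settings on filters and probes leave the signal of a gene with 1 probe, such as Igtp or Tap1, unchanged. Counts of alternatives that kept a result include such fits. The precision is limited by the number of arrays.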

Additional observations from a re-analysis of the deposited data

Results flagged for a closer look

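Within the 4 AL SIRT1-/- livers, 3 members had 1 library far from the other 3 by Dixon's criterion, a rule that chance meets in about 1 of 20 groups, and 48 genes were examined. Psmb9 was highest in replicate 3, at 2.09, against 1.65 to 1.72 in the other AL SIRT1-/- livers. Psmb8 was lowest in replicate 2, at -0.06, against 0.33 to 0.37. Usp18 was lowest in replicate 4, at 0.47, against 1.88 to 2.08.

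Among the same 48 genes, Bst2 was the gene whose diets separated in opposite directions between genotypes. How many of all genes do so was not counted. In SIRT1+/- livers it read 2.09, 2.4 and 2.74 on CR, against 2.05 and 1.69 on AL, so every CR value was higher. In SIRT1+/+ livers Bst2 read 0.99, 2.18 and 2.10 on CR, against 2.25, 2.73 and 2.52 on AL, so every CR value was lower. The difference of the CR effects, SIRT1+/- minus SIRT1+/+, was 1.29, and limma gave it an adjusted p of 1, so it did not pass.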

How the results depend on the processing

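For CR averaged over genotypes, 4 of 40 members passed. The count was 6 with array quality weights, 1 with Y-linked signal as a covariate, 0 in libraries with a Y-linked transcript and 0 to 5 when 1 library was left out. In SIRT1+/+ livers, where 1 member passed, the count was 0 without the filter on dim probes, 0 when only the groups compared were fitted, 4 with array quality weights, 0 in libraries with a Y-linked transcript, 0 with AL SIRT1-/- replicate 1 counted as AL SIRT1+/-, 0 without the 3 libraries that stand apart and 0 to 2 when 1 library was left out. The other 5 comparisons gave 0 members under all 31 alternatives. Over all genes 899 were called, against 2136 with array quality weights, 491 with Y-linked signal as a covariate and 67 in libraries with a Y-linked transcript. With the replicate number as a block 5 members passed, Cd74 being added. The numbers are not taken to pair mice, since correlations of same-numbered libraries ran from -0.181 to 0.289 over 40 pairs and 8 of 18 libraries correlated best with their own number. Leaving out 1 library turned the direction of 4 results that had not passed. H2-DMa ran from -0.95 to 0.111 for CR in SIRT1+/+ livers and from -1.06 to 0.003 for SIRT1-/- minus SIRT1+/+ on AL, both reversed only without AL SIRT1+/+ replicate 3, and they were 0.111 and 0.154 without the 3 libraries that stand apart. Irf7 averaged over genotypes ran from -0.24 to 0.004, reversed only without AL SIRT1-/- replicate 1. Gbp2 averaged over genotypes ran from -0.16 to 0.136, reversed in 5 of 18 fits, and was 0.016 without the 3 libraries. The cause of these changes was not tested. Of 1150 single-gene values under an alternative, 944 kept direction and side of the threshold, 179 lost a call, 16 gained one and 11 reversed.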

Other observations

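AL SIRT1-/- replicate 4, the library with high Saa1, was also low for several members. H2-Ab1 was 1.16 there, the lowest of 18 libraries, Irf7 was not detected, at -0.88, and Ifit3 was 0.54. Psme1, at 3.95, was likewise the lowest of the 18, while Stat2, at 1.60, was the highest.

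Cxcl9, a chemokine induced by interferon gamma, was high in single livers. It read 3.96 in AL SIRT1-/- replicate 1 and 3.72 in AL SIRT1+/+ replicate 3, against 0.42 to 2.22 in the other 16 libraries.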
